A study of Mus musculus with 37 samples.

Results

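The mRNA of 8 neurotrophin and neurotrophin receptor genes was followed in the hippocampus of Kdm1a-deficient and control mice. They were taken by name from the deposited gene counts, after Ensembl identifiers had been matched to symbols in GENCODE M21: the ligands Bdnf, Ntf3 and Ntf5, the tyrosine kinase receptors Ntrk2 and Ntrk3, the p75 receptor gene Ngfr, and the sortilin family receptors Sort1 and Sorcs2. These are 8 of the 48795 counted genes, and all 8 were among the 16799 genes with enough reads to be tested. Ntf5 was tested because of its counts in the Kdm1a-ifKO libraries alone, so that a called change in it could only be an increase.

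Kdm1a, also called Lsd1, is a histone demethylase that acts on methylated lysine 4 of histone H3. The RNA came from 6 hippocampi, 3 of control mice and 3 of inducible forebrain-specific knockouts (Kdm1a-ifKO), with 1 poly-A library per mouse. The mice were males on a C57BL/6J background. All carried Kdm1a f/f alleles and received tamoxifen at 8 weeks of age. The knockouts also carried Camk2α-creERT2, whose promoter limits recombination to principal neurons of the forebrain, whereas the controls were littermates without the recombinase. Glia, interneurons and vascular cells thus contributed RNA with an intact Kdm1a gene to every library. The age of the mice at dissection was not given in the labels. Loops between CTCF-bound sites were available from 1 ChIA-PET library, made from sorted Camk2a+ neuronal nuclei. The authors took these nuclei from tamoxifen-treated reporter mice that carried Camk2α-creERT2 and a GFP tag on nuclei. The reporter mice were thus not the littermate controls of the RNA libraries.

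Neurotrophins are secreted growth factors that are made as longer precursors and cleaved by proprotein convertases. The mature factors bind Trk receptors, which signal through the Ras/ERK, PI3K/Akt and PLCγ cascades and favour neuronal survival, dendritic growth and synaptic plasticity. The uncleaved precursors bind p75 together with sortilin or a SorCS protein, a complex linked to cell death, growth cone retraction and synaptic depression. In the adult hippocampus, BDNF acting through TrkB is the best studied pair, made largely by excitatory neurons and required for long-term potentiation.

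The counted reads ranged from 18985542 to 19469947 per library. Kdm1a itself was at 79.5, 81.1 and 79.6 CPM (reads scaled to a common library size) in the controls and at 39.3, 36.9 and 38.4 CPM in the Kdm1a-ifKOs, a log2FC of -1.07 (SE 0.0559, adjusted p = 6.24e-08, edgeR), and no library went against its label. Control replicate 3 and Kdm1a-ifKO replicate 2 stood apart from the other libraries of their groups on the second principal component, which held 16.6% of the variance. Markers of microglia were higher in the Kdm1a-ifKOs, with a summed level of 351 to 449.5 CPM against 306 to 334 CPM and 4 of 7 markers called higher. Of the 6 excitatory neuron markers, 2 were called lower, and the summed level spanned 7057 to 7817 CPM against 7208 to 7650 CPM. Of the 8 interneuron markers, 2 were called lower (Vip and Npy), with sums of 844 to 879 CPM against 875 to 945 CPM. Lhx6 and Sst had higher means, from 19.4 to 22.8 CPM and from 195 to 205 CPM, and the others lower ones. The summed astrocyte markers reached 5153 to 5423 CPM against 4631 to 5279 CPM, with 1 of 7 called higher. Of the 4 markers of CA3 pyramidal neurons none was called by edgeR (2 had an unadjusted p under 0.05), and their sum was 1014 to 1060 CPM against 1071 to 1174 CPM. Those 2 went in opposite directions, with the mean of Bok from 70.2 to 88.8 CPM and that of Iyd from 3.89 to 2.66 CPM. Chgb and Nnat had lower means. Of 5 dentate granule cell markers 1 was called higher (C1ql2), with sums of 413 to 491 CPM against 387 to 421 CPM. The mean of C1ql2 went from 76.4 to 112 CPM. Dsp and Lct also had higher means, and Prox1 and Stxbp6 lower ones. Of 5 thalamus markers 1 was called higher (Prkcd), with sums of 116 to 137 CPM against 102 to 107 CPM. The mean of Prkcd went from 33 to 49.1 CPM and that of Rora from 30 to 24.3 CPM. Calb2 and Tcf7l2 had higher means and Lef1 a lower one. Of 5 choroid plexus markers 1 was called higher (Kl), with sums of 64.1 to 71.2 CPM against 36 to 60.1 CPM. That list did not rise as a group. The mean of Kl went from 24.4 to 59 CPM and that of Folr1 from 0.738 to 0.802 CPM. Ttr, Clic6 and Kcne2 had lower means, with Ttr at 16.6 CPM in the controls and 5.9 CPM in the Kdm1a-ifKOs. The part of all these cell types in the changes below was not tested. In bulk tissue, fewer cells of a type and less RNA per cell cannot be told apart.

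Among the 8 genes, Bdnf fell, Ntf5 and Sorcs2 rose, and no call was made for Ntf3, Ntrk2, Ntrk3, Ngfr and Sort1. A call here is an adjusted p under 0.05 in edgeR's quasi-likelihood test over all tested genes. Bdnf lost 16.2% of its CPM and Sorcs2 gained 14.6%, whereas Ntf5 was 4.38-fold higher from a level close to the detection limit. Over all tested genes, 6.04% were called higher and 2.82% lower. Since Ntf5 could only be called higher, it is not read against the share of increases.

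**Figure D1:**
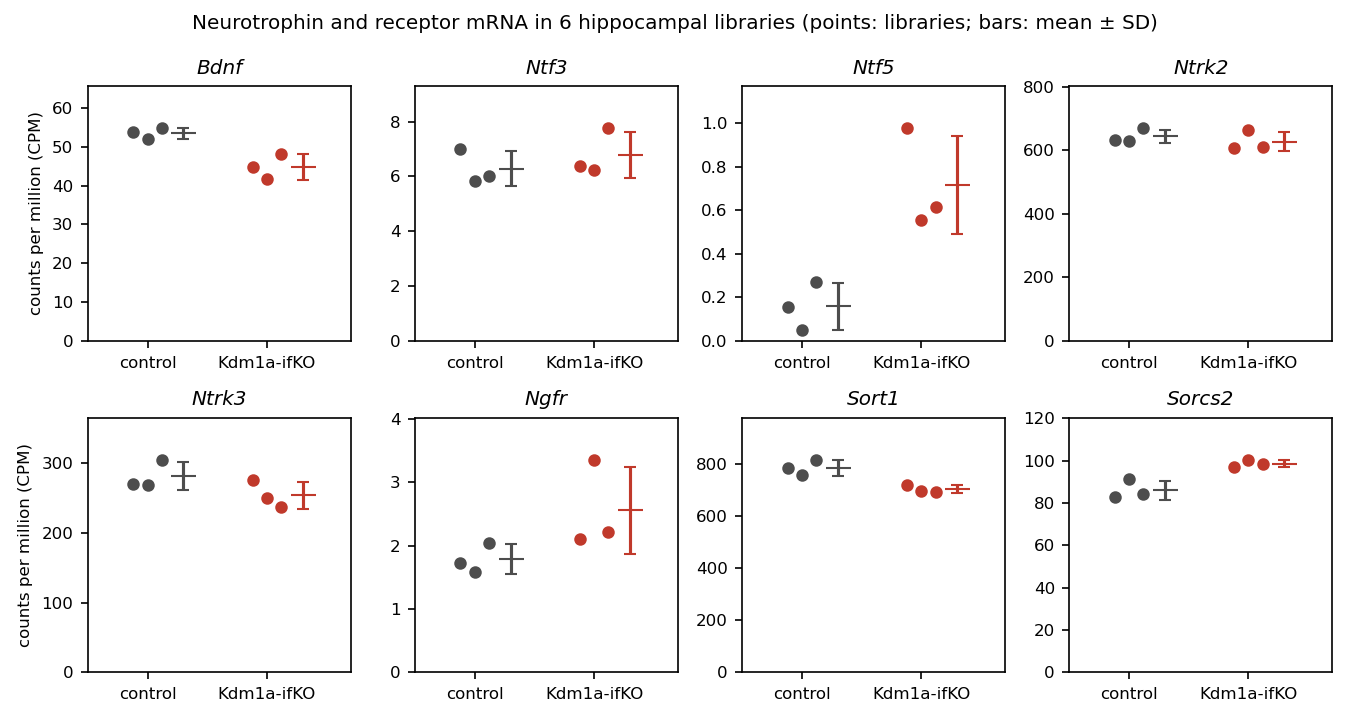
CPM of the 8 genes in each of the 6 libraries, with a separate linear axis from 0 for each gene. Points are libraries (control in grey, Kdm1a-ifKO in red) and bars give the mean ± SD of 3 libraries. The groups do not overlap for Bdnf, Ntf5, Ngfr, Sort1 and Sorcs2.

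Bdnf encodes brain-derived neurotrophic factor, the main ligand of TrkB. It spans chr2:109674700-109727007 on the plus strand (GRCm38) and was covered by 3033 reads in the controls and 2624 in the Kdm1a-ifKOs. Its level was 53.7, 52 and 54.7 CPM in the controls and 44.7, 41.6 and 48.1 CPM in the Kdm1a-ifKOs. Every Kdm1a-ifKO library lay below every control, with Kdm1a-ifKO replicate 2 lowest. The means were 53.4 ± 1.35 and 44.8 ± 3.24 CPM (SD, n = 3), a log2FC of -0.25 (95% interval -0.40 to -0.11, edgeR adjusted p = 0.0273). The call was lost when control replicate 1, control replicate 3, Kdm1a-ifKO replicate 1 or Kdm1a-ifKO replicate 2 was left out, with adjusted p-values of 0.0602, 0.05, 0.0907 and 0.0929 and log2FC values of -0.25, -0.24, -0.25 and -0.21. Its exons share 896 bases with Gm45346 on the other strand, and reads of these genes cannot be told apart where the counting ignored strand.

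Bdnf is transcribed from several promoters, each joined to the same coding exon, and the counts per gene add all of them together. RefSeq gives 7 start windows for it, each from 250 bases before to 50 bases after a start (GRCm38.p6). The third one, chr2:109692186-109692485 on the plus strand, is the window that a CTCF loop anchor of the neuronal library reached, and it was the one with a match to either searched motif. It is printed 5′ to 3′, with capitals for the CRE-like letters TCACGTCA, which resemble the binding site of CREB, and for a CTCF core, found here on the minus strand (CC and AG with any 3 bases between them, followed by any 2 bases and GGC).
Bdnf start window: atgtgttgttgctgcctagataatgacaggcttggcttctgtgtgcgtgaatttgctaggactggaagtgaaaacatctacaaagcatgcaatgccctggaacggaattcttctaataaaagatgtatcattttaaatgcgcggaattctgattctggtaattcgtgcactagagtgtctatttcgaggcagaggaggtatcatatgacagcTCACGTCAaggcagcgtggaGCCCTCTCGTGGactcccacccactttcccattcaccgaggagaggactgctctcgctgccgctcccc

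The CRE-like match began 38 bases before the transcript start and the CTCF core match 18 bases before it. The anchor, chr2:109691504-109692393, ended 5 bases short of the former and 25 bases short of the latter. Searched on both strands, TCACGTCA occurred in 0.441% of all 32851 start windows and the CTCF core in 8.61%, while the palindromic TGACGTCA occurred in 1.79% and in none of the 7 Bdnf windows. These are letter matches and were not measured as bound sites.

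Ntf3 encodes neurotrophin-3, the preferred ligand of TrkC, and lies at chr6:126101412-126166910 on the minus strand. Its level was 7.01, 5.83 and 6.02 CPM in the controls and 6.38, 6.24 and 7.75 CPM in the Kdm1a-ifKOs. The groups overlapped, with the highest and the lowest of the 6 values in Kdm1a-ifKO replicate 3 and control replicate 2. The log2FC was 0.11 with an interval from -0.19 to 0.41 (edgeR adjusted p = 0.673).

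Ntf5 encodes neurotrophin-4, a further TrkB ligand. It is a short gene of 3.48 kb at chr7:45413695-45417179 on the plus strand. It had 3, 1 and 5 reads in the controls and 19, 11 and 12 reads in the Kdm1a-ifKOs, or 0.157, 0.0525 and 0.269 CPM against 0.977, 0.558 and 0.616 CPM. Every Kdm1a-ifKO library exceeded every control. The fitted log2FC was 2.13 (95% interval 1.01 to 3.26, edgeR adjusted p = 0.0225), and the summed reads gave a ratio of 4.52 with an exact binomial 95% interval of 2.17 to 10.6 that covers counting error only. The call was lost when control replicate 1, control replicate 2 or Kdm1a-ifKO replicate 1 was left out, with adjusted p-values of 0.0607, 0.079 and 0.103, and DESeq2 gave it no adjusted p (unadjusted p = 0.0061).

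Kcna7, which encodes a voltage-gated potassium channel subunit, ends 3.93 kb before Ntf5 on the same strand (chr7:45405653-45409763). It was named after its values had been seen. Kcna7 had 1, 0 and 0 reads in the controls and 13, 15 and 17 in the Kdm1a-ifKOs, a ratio of 43.6 with an exact binomial 95% interval of 7.43 to 1760 that covers counting error only. Like Ntf5 it was tested because of its Kdm1a-ifKO counts alone, so that its call by edgeR could only be an increase. Of the 11 tested genes within 50 kb of Ntf5, Kcna7 was the 1 called. Over all tested genes, 6.04% were called higher and 2.82% lower. Since Kcna7 could only be called higher and was picked by its values, it is not read against these shares. Ruvbl2, 4.58 kb away on the opposite strand, stood at 27.8 CPM in the controls and 28.5 CPM in the Kdm1a-ifKOs (adjusted p = 0.841, edgeR).

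The anchor nearest Ntf5, chr7:45404187-45406044, covered the start of Kcna7. It was joined by 7 paired-end tags (PETs, each a sequenced ligation between both anchors) to chr7:45395574-45396782, within 1 kb of the start of Snrnp70, and an overlapping anchor was joined by 3 PETs to a site 148 kb past the Ntf5 start. The matches to the CTCF core in the 7-PET pair are shown because they mark this interval, with the core in capitals and each site read 5′ to 3′ on the strand of its match. The first lay at chr7:45396403-45396432 on the minus strand, the second at chr7:45404220-45404249 on the minus strand and the third at chr7:45405220-45405249 on the plus strand.
Snrnp70-side anchor: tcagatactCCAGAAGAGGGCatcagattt
Kcna7-side anchor, first match: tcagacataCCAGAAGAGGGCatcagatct
Kcna7-side anchor, second match: tccatccggCCGGCAGAGGGCgcgcgagat

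In TPM, a unit that also scales the reads to exon length, Bdnf made up 69.8% ± 1.95 of the summed mRNA of Bdnf, Ntf3 and Ntf5 in the controls and 63% ± 0.982 in the Kdm1a-ifKOs (SD, n = 3). The share of Ntf5 was 0.482% ± 0.325 and 2.37% ± 0.775, and that of Ntf3 29.7% ± 1.99 and 34.6% ± 1.62. Of these 3 ligand transcripts, Bdnf was the most abundant and Ntf5 the least abundant in both groups. An exact permutation test of 3 against 3 libraries cannot give a p under 0.1, and none of the shares was tested.

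Ntrk2 encodes TrkB, which neurons make as a full-length kinase and astrocytes mostly as a truncated form without the kinase domain. Counts per gene do not separate these forms. The gene spans 327 kb at chr13:58806569-59133970 on the plus strand. Its level was 633, 630.1 and 669 CPM in the controls and 609, 663 and 612 CPM in the Kdm1a-ifKOs, overlapping ranges with Kdm1a-ifKO replicate 2 near the highest control. The log2FC was -0.04, with an interval of -0.15 to 0.08 (edgeR adjusted p = 0.72). This interval does not include the Bdnf estimate of -0.25 but overlaps the Bdnf interval of -0.40 to -0.11.

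Ntrk3 encodes TrkC, the receptor of neurotrophin-3, and spans 562 kb at chr7:78175959-78738012 on the minus strand. It stood at 271, 269 and 305 CPM in the controls and at 276, 249.9 and 238 CPM in the Kdm1a-ifKOs. Kdm1a-ifKO replicate 1 lay among the controls, and replicates 2 and 3 lay below them. The log2FC was -0.14 (95% interval -0.29 to 0.00) and missed the threshold (edgeR adjusted p = 0.207).

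Ntrk2 made up 78.2% ± 0.638 of the summed TPM of Ntrk2 and Ntrk3 in the controls and 79.4% ± 1.64 in the Kdm1a-ifKOs. The TPM ratio of Bdnf to its receptor Ntrk2 was 0.263, 0.256 and 0.253 in the controls and 0.228, 0.194 and 0.244 in the Kdm1a-ifKOs, without overlap (two-sided exact permutation p = 0.1, the smallest this design allows).

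Ngfr encodes p75, which binds all neurotrophins and their precursors and is scarce in the adult hippocampus. The gene lies at chr11:95568818-95587735 on the minus strand. It had 33, 30 and 38 reads in the controls and 41, 66 and 43 in the Kdm1a-ifKOs, or 1.73, 1.58 and 2.04 CPM against 2.11, 3.35 and 2.21 CPM. All 3 Kdm1a-ifKO libraries exceeded the controls, 2 of them by little. The log2FC of 0.52 had an interval from 0.02 to 1.03 and was not called (edgeR adjusted p = 0.189). Of the 5 markers of Schwann cells, which also make p75, 3 were tested and none was called by edgeR or had an unadjusted p under 0.05, and Pmp2 was at 0 throughout. Basal forebrain cholinergic neurons, whose fibres but not cell bodies lie in the hippocampus, are a further source of p75. Their 5 markers summed to 0.994 to 1.47 CPM in the controls and 1.78 to 1.9 CPM in the Kdm1a-ifKOs, with differences in both directions among them. Chat, which makes acetylcholine, had 1, 3 and 3 reads in the controls and 0, 0 and 1 in the Kdm1a-ifKOs. Slc18a3, the vesicular acetylcholine transporter gene, had 2, 0 and 0 reads against 16, 10 and 7. Slc5a7, the choline transporter gene, had 16, 25 and 22 reads against 20, 25 and 27, and Lhx8 was at 0 in every library. The 8 markers of mural cells and fibroblasts summed to 249, 327 and 218 CPM in the Kdm1a-ifKOs. In the controls that sum was 244 to 253 CPM, and 1 marker was called higher by edgeR (Pdgfrb). Kdm1a-ifKO replicate 2 was thus the highest library both for this sum and for Ngfr, and a relation between them was not tested.

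Sort1 encodes sortilin, which sorts proBDNF into secretory vesicles and is the co-receptor of p75. The gene lies at chr3:108284082-108361511 on the plus strand. Its level was 783, 756 and 815 CPM in the controls and 720.1, 697 and 694 CPM in the Kdm1a-ifKOs. The groups did not overlap, and the Kdm1a-ifKO libraries lay close together. The log2FC was -0.16 (95% interval -0.26 to -0.05), with an adjusted p of 0.0628 by edgeR and of 0.0346 by DESeq2. Its exons share 338 bases with the antisense gene Gm12523.

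Sorcs2 encodes a sortilin-related receptor that pairs with p75 and with TrkB, and spans 381 kb at chr5:36017180-36398139 on the minus strand. It rose from 82.9, 91.2 and 84.2 CPM in the controls to 97.1, 100.3 and 98.5 CPM in the Kdm1a-ifKOs. The lowest Kdm1a-ifKO library exceeded the highest control. The means were 86.1 ± 4.47 and 98.6 ± 1.6 CPM (SD, n = 3), with a log2FC of 0.20 (SE 0.0546, 95% interval 0.08 to 0.31, edgeR adjusted p = 0.0412). With any 1 library other than control replicate 2 left out the adjusted p was between 0.058 and 0.128, and by DESeq2 it was 0.0547.

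The TPM ratio of Sorcs2 to Sort1 was 0.091, 0.104 and 0.0888 in the controls and 0.116, 0.124 and 0.122 in the Kdm1a-ifKOs, without overlap (two-sided exact permutation p = 0.1). Over the 8 genes, the groups did not overlap for 3 with higher values (Ntf5, Ngfr and Sorcs2) and 2 with lower values (Bdnf and Sort1). Of all tested genes, 15.7% were higher and 14.4% lower without overlap. Ntf5 was tested because of its Kdm1a-ifKO counts alone, so it is not read against the share of higher genes.

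**Figure D2:**
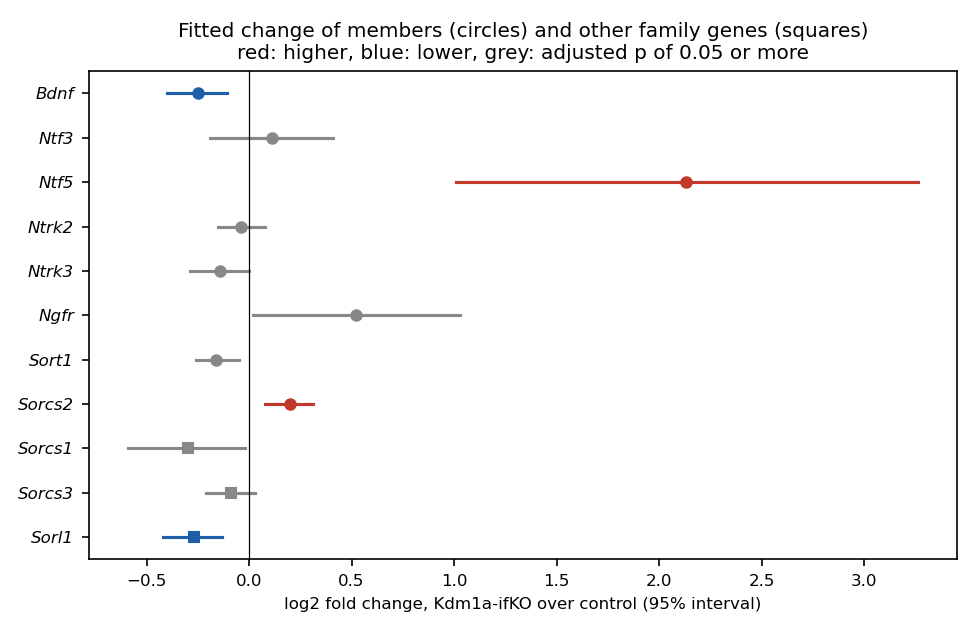
Fitted log2 fold change of the 8 genes (circles) and of 3 other family genes (squares) with 95% intervals, Kdm1a-ifKO over control. Red and blue mark an adjusted p under 0.05 with a higher or lower level, and the interval of Ntf5, from 1.01 to 3.26, is the widest.

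Of 3 other sorting receptor genes of the family, 1 was called. Sorl1, which encodes the sorting receptor SORLA, fell from 435 ± 45.1 to 360.5 ± 12 CPM (log2FC -0.27, edgeR adjusted p = 0.0262). Its call was lost without Kdm1a-ifKO replicate 1, 2 or 3 (adjusted p = 0.0569, 0.0649 and 0.0953, edgeR). Sorcs1 was at 16.9 ± 2.39 and 13.7 ± 2.15 CPM (adjusted p = 0.174, edgeR), and Sorcs3 at 63.5 ± 1.78 and 59.8 ± 1.98 CPM (adjusted p = 0.374, edgeR).

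Per exon length, the 8 transcripts in the controls ran from 412 TPM for Sort1 through Ntrk2 (133), Sorcs2 (38.9), Ntrk3 (37.1), Bdnf (34.2), Ntf3 (14.6) and Ngfr (2.05) to 0.239 TPM for Ntf5. Sort1 exceeded 98.4% of all tested genes and Ntrk2 92.2%, whereas Ngfr exceeded 12.3% and Ntf5 0.275%. The ranges of the control libraries overlapped only for the neighbours Sorcs2 (37.6 to 41.2 TPM) and Ntrk3 (35.4 to 40 TPM). The order was the same in the Kdm1a-ifKOs, where those ranges separated, at 43.9 to 45.9 TPM for Sorcs2 and 31.4 to 36.4 TPM for Ntrk3. Receptors were thus more abundant than ligands at the level of mRNA, except for Ngfr.

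**Figure D3:**
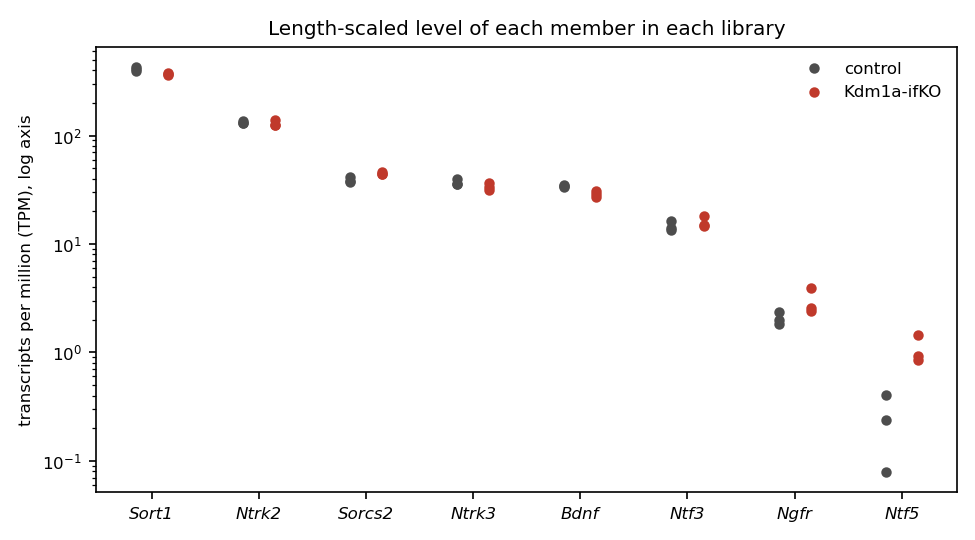
TPM of the 8 genes in each library on a log axis, ordered by the control mean. Grey points are control and red points Kdm1a-ifKO libraries, 3 each, and the levels span from 0.0786 TPM for Ntf5 to 426 TPM for Sort1.

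Genes whose log2 CPM followed the called genes most closely over the 6 libraries are given as a description. For Bdnf they were Osgin2, F420014N23Rik and Acp2 (r from 0.987 to 0.999), none of which was itself called. For Ntf5 they were Fam107b, Cd109 and Vangl1 (r from 0.982 to 0.983), and Cd109 rose from 7.21 to 12 CPM (adjusted p = 0.00257, edgeR). For Sorcs2 they were Adcy6, Etv4 and Tapbp (r from 0.989 to 0.992), and all 3 rose, with log2FC values of 0.22, 0.33 and 0.54. These are the highest of 11871 or 11872 correlations per gene, over 6 points that fall into 2 groups.

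The machinery around the ligands and receptors was read from 6 lists with 146 genes, of which 142 were tested. The lists were put together with earlier results of these data known. In edgeR, 11 genes were called higher and 12 lower, and the median log2FC was -0.04 against -0.0034 over all tested genes. The shares called over all tested genes, 6.04% higher and 2.82% lower, are the background for this count and for each list below. Of the 23 calls, 8 held under every alternative (Bhlhe40, Hap1, Mapk3, Npy, Rest, Smpd2, Syt4 and Zfp110). The other 15 were each lost with at least 1 library left out, and Bex1, Cort and Traf4 also by DESeq2 (adjusted p = 0.0717, 0.0603 and 0.0797). Exons of 9 of these 23 genes share bases with a gene on the other strand (Arnt2, Bex1, Bhlhe40, Mapk7, Pcsk2, Rtn4, Smpd2, Sorl1 and Syt4).

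Of 19 tested genes for the processing, transport and release of proneurotrophins, 2 rose and 3 fell, with a list median of 0.01. Hap1, which encodes an adaptor that carries BDNF vesicles along microtubules, rose from 247, 294 and 237 CPM to 512, 464 and 490 CPM (log2FC 0.91, edgeR adjusted p = 2.75e-05). Serpine2, a secreted inhibitor of serine proteases, rose by 0.20 on the log2 scale (adjusted p = 0.017, edgeR). Syt4, a synaptotagmin that restrains BDNF release, fell from 142, 164 and 169 CPM to 118, 126 and 114 CPM (log2FC -0.41, edgeR adjusted p = 0.00211). Serpini1, the neuronal inhibitor of tissue plasminogen activator, and Pcsk2, a convertase of secretory granules, fell by 0.34 and 0.18 on the log2 scale. The calls of Serpine2, Serpini1 and Pcsk2 were lost in 3, 4 and 5 of 6 runs with 1 library left out, all including those without control replicate 2, Kdm1a-ifKO replicate 1 or Kdm1a-ifKO replicate 3 (edgeR adjusted p up to 0.0974, 0.178 and 0.201). Mmp3 and Mmp7, proteases that can cleave proneurotrophins, had no read in any library.

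Of the 48 adaptors and kinases below the Trk receptors, all tested, 2 rose and 1 fell. Mapk3, the gene of ERK1, stood at 139, 143 and 129 CPM in the controls and at 177, 176 and 166 CPM in the Kdm1a-ifKOs (log2FC 0.34, edgeR adjusted p = 0.0019). Mapk7, the gene of ERK5, rose by 0.28, and Rps6ka2, an ERK-activated ribosomal S6 kinase, had a log2FC of -0.30. Both of these calls were lost without control replicate 2 or Kdm1a-ifKO replicate 3, and that of Mapk7 also without Kdm1a-ifKO replicate 1 (edgeR adjusted p up to 0.0908 for Mapk7 and 0.0869 for Rps6ka2). The median of the list was -0.06.

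Partners of p75 held 5 increases and 2 decreases among 27 tested genes, with a median of -0.03. Smpd2, a neutral sphingomyelinase, rose from 20.4, 18.5 and 17.7 CPM to 27.1, 25.7 and 25.3 CPM (log2FC 0.46, edgeR adjusted p = 0.00211). Nradd, a receptor homologue related to p75, rose from 1.83, 1.79 and 2.15 CPM to 4.01, 2.64 and 3.8 CPM (log2FC 0.86, edgeR adjusted p = 0.0227). Zfp110, a p75-interacting zinc finger protein, Traf4, a TNF receptor associated factor, and Bex1, an adaptor that binds p75, rose by 0.46, 0.37 and 0.27 on the log2 scale. Rtn4, the gene of the myelin inhibitor Nogo, and Mapk10, the gene of the neuronal kinase JNK3, fell by 0.22 and 0.17. The call of Bex1 was lost with any 1 library left out, that of Mapk10 with any but control replicate 3, and that of Traf4 with any but control replicate 1 or Kdm1a-ifKO replicate 3 (edgeR adjusted p up to 0.132, 0.153 and 0.0835). That of Nradd was lost without control replicate 1 or 2 or Kdm1a-ifKO replicate 1 or 3 (up to 0.0946), and that of Rtn4 without Kdm1a-ifKO replicate 3 (0.0795).

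Among 20 regulators of Bdnf transcription, 2 rose and 2 fell, with a median of 0.01. Rest, a repressor of neuronal genes that binds Bdnf, rose from 6.07, 6.09 and 6.99 CPM to 13.9, 14.3 and 12.6 CPM, the largest change of the list (log2FC 1.09, edgeR adjusted p = 2.89e-05). Arnt2, a partner of the activity-induced activator Npas4, rose by 0.18 (adjusted p = 0.0489, edgeR), a call that was lost with any 1 library left out (0.0632 to 0.159), with DESeq2 size factors (0.0505) and at a minimum of 10 counts (0.0559). Mef2c, an activity-dependent activator, had a log2FC of -0.33 (adjusted p = 0.0332, edgeR), and Bhlhe40, a repressor, one of -0.28 (adjusted p = 0.00547, edgeR). The call of Mef2c was lost with any library but Kdm1a-ifKO replicate 2 left out (edgeR adjusted p up to 0.139).

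Of 24 genes that BDNF is known to induce in neurons, none was called higher by edgeR and 3 were called lower, with 10 at an unadjusted p under 0.05 in either direction and a median of -0.09. The background is again 6.04% called higher and 2.82% lower. The list summed to 1796, 1456 and 1435 CPM in the controls and to 1321, 1474 and 1412 CPM in the Kdm1a-ifKOs. Control replicate 1 thus stood above the other controls, which overlapped the Kdm1a-ifKOs. DESeq2 also called Ier2 and Nptx2 higher and Nr4a1 and Per1 lower. By edgeR, Ier2 had a log2FC of 0.61 and an adjusted p of 0.0509, and it was called higher with a replicate block. Dusp6, a phosphatase that limits ERK, fell from 77, 64.2 and 68.4 CPM to 53, 55.9 and 58.1 CPM (log2FC -0.33, edgeR adjusted p = 0.0115, and 0.0643 without Kdm1a-ifKO replicate 1). Cort, which encodes the peptide cortistatin, had 8.37, 7.46 and 7.31 CPM in the controls and 4.99, 5.23 and 5.9 CPM in the Kdm1a-ifKOs (log2FC -0.52, edgeR adjusted p = 0.0247). Its call was lost without control replicate 1 or 2 or Kdm1a-ifKO replicate 1 or 2 (0.0816, 0.0512, 0.0924 and 0.0596, edgeR adjusted p). Npy, the neuropeptide Y gene, had a log2FC of -0.31 (adjusted p = 0.0106, edgeR). Cort and Npy are made by interneurons, whose marker list, Npy included, is given above.

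**Figure D4:**
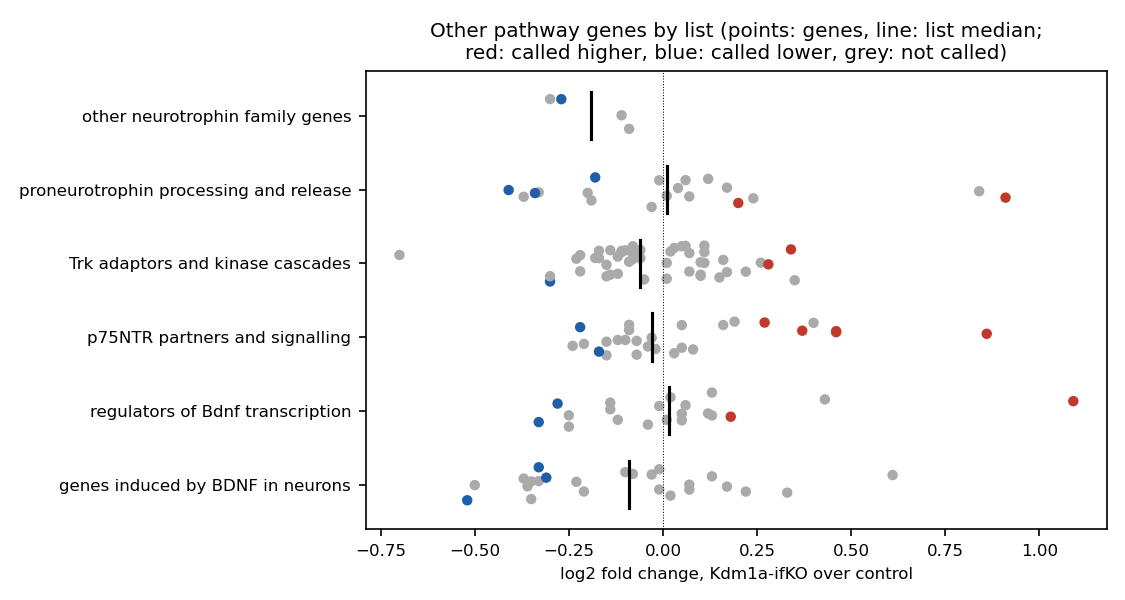
Log2 fold change of the 142 tested pathway genes, Kdm1a-ifKO over control, by list. Points are genes (red called higher, blue called lower, grey not called) and black lines are list medians, which lie between -0.19 and 0.01.

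All 8 genes had a CTCF loop anchor within 10 kb of the gene body in the neurons of the reporter mice, as did 56.9% of the tested genes with coordinates. Their bodies are long, with a median of 71.5 kb against 21.3 kb. For 4 of the 8 (Ntf3, Ntrk2, Sort1 and Sorcs2), an anchor lay within 1 kb of the gene start, against 18.4% of tested genes. The 8 genes held 55 of such loops, from 1 at Bdnf to 15 at Sorcs2. With a single library there is no replicate check, and the series holds no CTCF ChIA-PET library of Kdm1a-ifKO neurons.

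Sorcs2, with the most loops of the 8 genes, had 194 PETs in its 15 loops. The strongest joined its start, in chr5:36393184-36401768, with chr5:36032648-36036557 inside the gene 364 kb further along, by 66 PETs. A loop of 40 PETs ran from the start to an intron 75 kb away, and 6 loops had both anchors inside the gene. For comparison, 4.83% of all 27786 loops had at least 40 PETs, and the median was 5. CTCF core matches from the 66-PET pair are printed with the core in capitals. The inner match, chr5:36035777-36035806, lay on the plus strand and the match near the start, chr5:36396206-36396235, on the minus strand, so that these matches face each other. The other of the 2 inner matches, which began at 36035360, lay on the minus strand like all 6 in the start anchor, and does not face them.
Sorcs2 inner anchor: cccggggtgCCTGGAGGGGGCactgcagct
Sorcs2 start anchor: tgcatctggCCAGCAGGGGGCagtcagggt

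At Sort1, 33 PETs joined the gene start, in chr3:108281304-108286093, to chr3:108387561-108390400, which lies past the end of the gene and 105 kb from the start. Of the 6 Sort1 loops, 4 reached this downstream region. Of 2 matches to the CTCF core in the start anchor, both on the minus strand, the one inside the gene lay at chr3:108284385-108284414, and the downstream anchor held a match on each strand, at chr3:108389335-108389364 (plus) and chr3:108389443-108389472 (minus).
Sort1 start anchor: cgatgaagtCCGGGAGGCGGCcgcagtctt
Sort1 downstream anchor, plus strand: tcggcatggCCAGTAGGTGGCaggtttgtt
Sort1 downstream anchor, minus strand: cggctccagCCACCAGGTGGCagcaacaca

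Ntf3 had 11 loops, 10 of them with an anchor within 1 kb of its start, and the strongest joined the start by 47 PETs to a site 546 kb away. All 4 loops of Ntrk2 left from its start. The strongest, with 17 PETs, ended in an intron of the gene at 267 kb, and 13 PETs reached a site past the end of the gene at 376 kb. The 13 loops of Ntrk3 did not involve its start. They joined an interval 140 to 172 kb inside the gene with itself (8 loops, up to 18 PETs) and with a site about 28 kb before the start (5 loops, up to 8 PETs).

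Ngfr had 3 loops, of which that with 9 PETs joined a site 10 kb inside the gene to one 62 kb before its start. Bdnf had the fewest, with 1 loop of 3 PETs, the minimum in the file, that spanned 15.8 kb from between the first and second start windows to the third. Of the called genes, Sorcs2 thus had the most loops of the 8 and Bdnf the fewest, while Ntf5 had 2 loops with 10 PETs in sum. The bodies of Sorcs2, Bdnf and Ntf5 span 381, 52.3 and 3.48 kb, and the loop counts were not adjusted for length. In windows of 1 kb, the CTCF core was found at 42.3% of all loop anchors and at 17.4% of the same windows moved by 50 kb, and among the 110 anchor ends of the 8 genes 63 held it at their full, unequal lengths, including 22 of 30 at Sorcs2 and 0 of 2 at Bdnf.

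**Figure D5:**
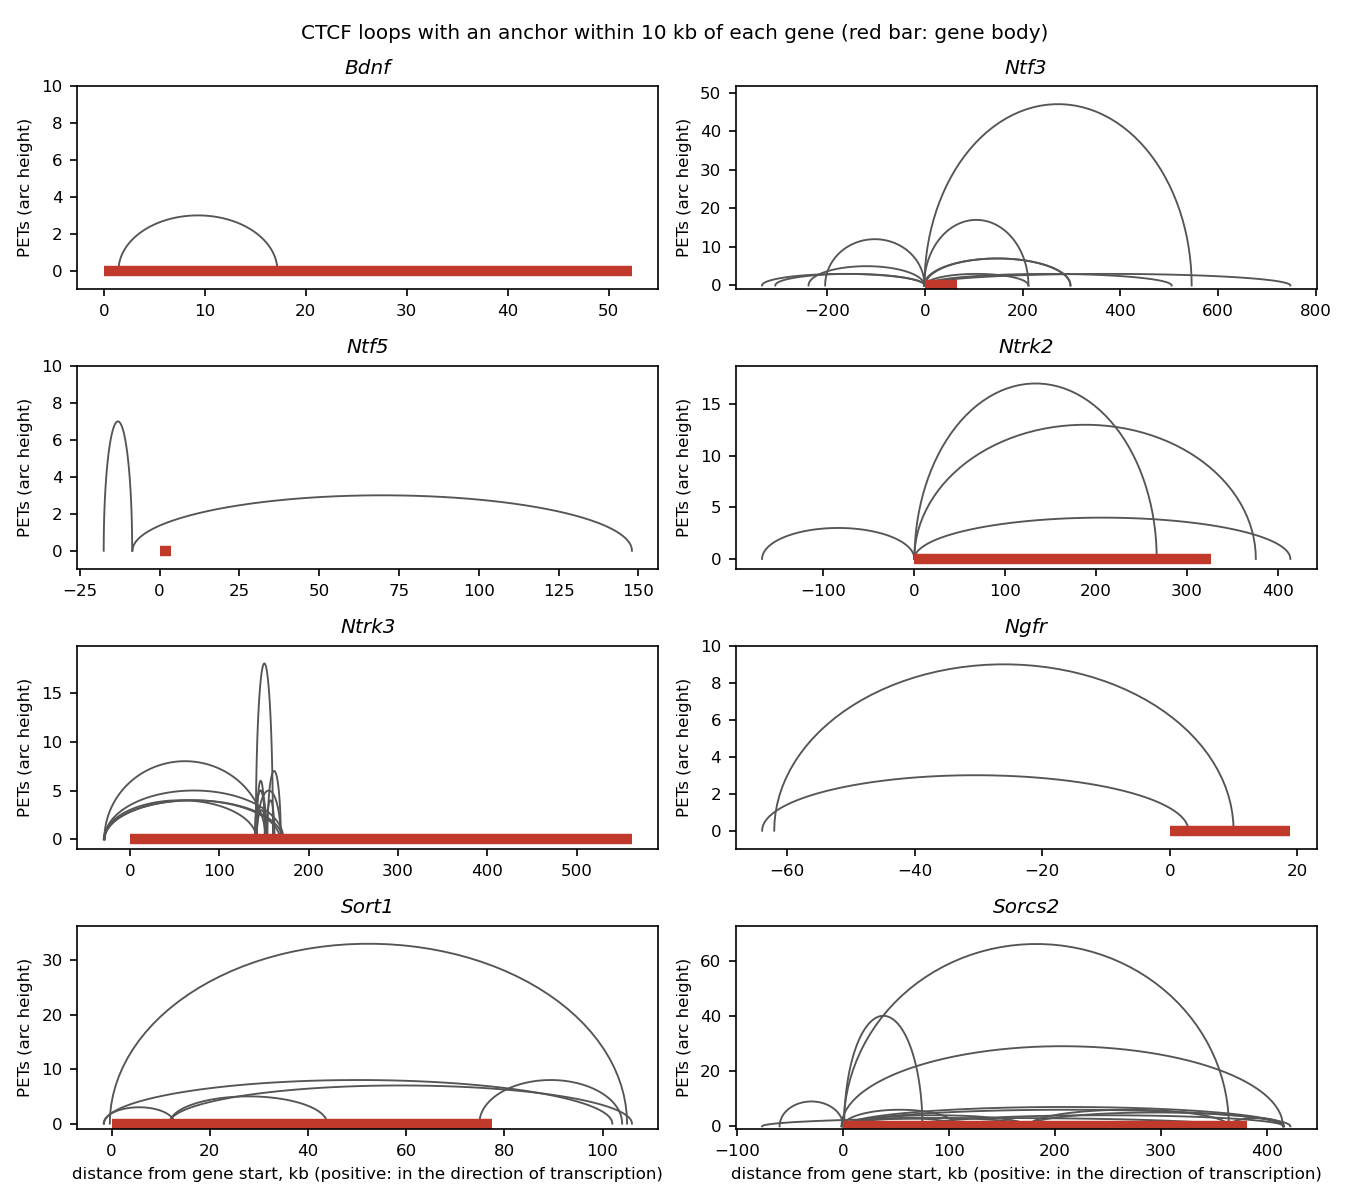
CTCF loops with an anchor within 10 kb of each gene in 1 library of neurons of the reporter mice, as arcs whose height is the number of PETs. The horizontal axis is the distance from the gene start in kb along the direction of transcription, the red bar is the gene body, and a Ngfr loop of 9220 kb is not drawn. Arcs gather at the starts of Ntf3, Ntrk2 and Sorcs2 and inside Ntrk3.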

How the data were processed

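Poly-A RNA of 6 hippocampi was sequenced. The authors trimmed single-end reads with cutadapt 1.18, aligned them to mm10 (GRCm38) with HISAT2 2.1.0 and obtained reads per Ensembl gene from HTSeq 0.11.1. The deposited values are raw counts without normalization, and the strand setting is not given in the sources used here. The authors called CTCF loops with ChIA-PIPE, and the deposited PET counts include only loops of at least 3 PETs. Genotypes were compared with edgeR 4.0.16 in R 4.3.3 (filterByExpr, TMM, robust quasi-likelihood F test, Benjamini-Hochberg over 16799 genes). CPM used TMM library sizes, and TPM used summed exon length from GENCODE M21. Identifiers matched for 99.1% of counted genes. Intervals are at 95%. With 1 library per mouse and 3 mice per group, p-values measure the spread between these mice. Replicate libraries differed beyond sampling noise (chi-square per degree of freedom 2.95 to 7.59).

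The members and gene lists were chosen with earlier results of these data known. Named were all 8 genes, other family genes, pathway genes with an adjusted p under 0.05, the 3 most correlated genes of each called member (at least 5 CPM in controls) and Kdm1a. Alternatives were DESeq2 1.42.0, its size factors in edgeR, upper-quartile normalization, no filter, at least 10 counts in sum, a replicate block, each library left out, longest-transcript lengths or CPM for the order, and anchors over the body or within 25 kb or loops of at least 5 or 10 PETs. Leaving out both libraries that stood apart was chosen after seeing the data. In simulated counts, the share of false calls exceeded the nominal level where dispersions varied freely between genes, and met it where they followed a trend. Start windows came from RefSeq for Bdnf, Ntf3, Ntrk2 and Ngfr, and are named only for Ntf5, Ntrk3, Sort1 and Sorcs2. Loop and motif positions used Python 3.11.15 and the GRCm38.p6 sequence. Results for some genes covered by this rule are not reported here.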

Additional observations from a re-analysis of the deposited data

How the results depend on the processing

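No fitted change of the 8 members, Kdm1a, the other family genes or the called pathway genes turned direction under any alternative tried. Kcna7 and the most correlated genes were not run under them. Members called higher were 2 and lower 1 with both other normalizations and both other filters. DESeq2 called 0 higher and 2 lower (Bdnf and Sort1), with 2 higher and 3 lower at an unadjusted p under 0.05. Without control replicate 3 and Kdm1a-ifKO replicate 2 together, 1 was called higher (Ntf5) and 0 lower by edgeR, where 2 members had an unadjusted p under 0.05 in each direction, and the Bdnf log2FC was -0.18 (adjusted p = 0.0978). With each library left out in turn, 0 to 1 member was called higher and 0 to 1 lower (edgeR, with 2 to 3 at an unadjusted p under 0.05 in each direction). Over the same omissions, pathway genes called higher ranged from 5 to 10 and lower from 5 to 13, against 11 and 12, and all calls from 783 to 1460, against 1487. The lowest values came without Kdm1a-ifKO replicate 1 or 3 or, for higher pathway genes, also without control replicate 2, and fewer libraries were then tested. Without the filter on low counts, 24 pathway genes were lower and 2537 genes were called in all; the cause was not tested. Same-numbered libraries did not deviate together (correlations of -0.0316, -0.0886 and -0.144). With 3 libraries per group, such correlations cannot exclude a pairing by litter or processing. The replicate block left 1 member called higher (Ntf5) and 1 lower (Bdnf), and 1046 calls. Loops of at least 10 PETs left 5 members with an anchor. With CPM in place of TPM, 6 of 8 members kept their rank, since Ntrk3 and Sorcs2 changed places. At 9 control reads, Ntf5 is limited by depth.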
